A study of Mus musculus with 21 samples.

Results

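The genes described here are the 6 subunits of respiratory chain complexes III, IV and V that the mouse mitochondrial genome encodes: mt-Cytb of complex III, mt-Co1, mt-Co2 and mt-Co3 of complex IV, and mt-Atp6 and mt-Atp8 of complex V. They were taken by gene symbol from the Ensembl identifiers of an expression table of mouse cortex, and all 6 were among its 5544 genes. The table holds 21 libraries of total RNA from the cortex of male C57BL/6 mice (C57Bl/6J in the study's methods), labelled as 12 weeks old, and depleted of ribosomal RNA. The 11 HF-HI mice (high-frequency head impact) had received repeated head impacts under isoflurane anesthesia on consecutive days, and the 10 sham mice had the same handling and anesthesia without impacts. Cortex was taken 24 h after the final impact, the column names mark both groups as wild type (WT), and the labels name no transgene or drug in either. The comparison asks how the level of each of these transcripts differed between the cortex of HF-HI and sham mice, and whether the 6 moved together.

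Complex III passes electrons from ubiquinol to cytochrome c, complex IV passes them from cytochrome c to oxygen, and both pump protons across the inner mitochondrial membrane, while complex V uses the returning protons to make ATP. Each complex is built from subunits encoded in the nucleus around a core that includes the mitochondrially encoded ones, and neurons rely on this machinery for the ATP that ion pumping and synaptic transmission consume. All mitochondrial mRNAs described here are cut from long precursors copied from whole strands of the genome, so that genes of the same strand share a promoter region and their mature levels also depend on processing and decay.

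All 6 members lie on the + strand of the mitochondrial genome (GRCm38, the assembly named mm10 in the study). In genome order, mt-Co1 spans chrM:5328-6872, mt-Co2 chrM:7013-7696, mt-Atp8 chrM:7766-7969, mt-Atp6 chrM:7927-8607, mt-Co3 chrM:8607-9390 and mt-Cytb chrM:14145-15288. Each is a single exon with almost no sequence outside the reading frame. Their sequences bear on what a read can be assigned to. The reading frames of mt-Atp8 and mt-Atp6 overlap by 43 bases, 21.1% of mt-Atp8 and 6.31% of mt-Atp6, and both are carried on the same mature RNA. The whole of mt-Atp8 is shown because it had the largest difference among the members, with the stretch shared with mt-Atp6 in capitals, 5′ to 3′ on the + strand.
mt-Atp8 (GRCm38 chrM:7766-7969): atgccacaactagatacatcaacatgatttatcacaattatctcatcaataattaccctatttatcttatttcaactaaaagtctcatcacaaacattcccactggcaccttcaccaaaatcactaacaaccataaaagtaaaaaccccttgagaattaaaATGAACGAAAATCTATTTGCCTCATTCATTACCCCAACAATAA
The end of mt-Atp6 shares its last base with the start of mt-Co3, neighbours whose log2 differences had opposite signs (both positive with the GC trend removed, as described with mt-Co3). The junction is shown with the shared base in capitals.
mt-Atp6 and mt-Co3 junction (GRCm38 chrM:8577-8636): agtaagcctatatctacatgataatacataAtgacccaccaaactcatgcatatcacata
The genes of mt-Co3 and mt-Cytb are 784 and 1144 bases long, 1 base more than a whole number of codons, and end in a single T that polyadenylation completes to a stop codon. The last 30 bases of both are shown beside those of mt-Co1, whose gene holds its full stop codon, with the encoded part of the stop codon in capitals.
mt-Co1 (GRCm38 chrM:6843-6872): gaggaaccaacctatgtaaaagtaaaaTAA
mt-Co3 (GRCm38 chrM:9361-9390): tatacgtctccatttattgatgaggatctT
mt-Cytb (GRCm38 chrM:15259-15288): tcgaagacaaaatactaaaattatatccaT

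The values are variance-stabilized expression values on a log2 scale, normalized for library size by the authors, so that a difference of 1 stands for a doubling of normalized reads at these levels. Read totals were not analysed here, and the depth relative to the median library, read from the spacing of the values within each library, was 0.580 to 1.26 in sham and 0.548 to 1.64 in HF-HI. Groups were compared with limma's moderated test, two-sided, with Benjamini-Hochberg adjustment over all 5544 genes, and a gene is called higher or lower in HF-HI at an adjusted p under 0.05. The labels number the libraries of a group without naming mice, so p-values measure the spread between these libraries. In bulk cortex, fewer cells of a type and less RNA per cell cannot be told apart.

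Of the 6 members, 4 were higher in HF-HI, 1 was lower and 1 was not called. This is read against a background in which 66.3% of all genes were called, 32.6% higher and 33.6% lower (1810 and 1864 genes, and 1448 and 2376 after centring each library on its median). mt-Atp8 and mt-Cytb rose by about 1 on the log2 scale, mt-Atp6 and mt-Co2 rose by less, mt-Co3 fell slightly (but had a positive difference, not called, with the GC trend removed) and mt-Co1 was not called. The groups did not overlap for 4 members, against 13.5% of all genes. The median log2 difference of the 6 members was 0.45, beside -0.0086 over all genes.

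mt-Atp8, a small membrane subunit of the stator of ATP synthase, ran from 12.70 to 13.66 in the sham libraries (median 13.27) and from 14.06 to 14.76 in the HF-HI libraries (median 14.33). The lowest HF-HI library was clear of the highest sham library. The log2 difference was 1.04 ± 0.0929 (SE), a 2.05-fold higher level in HF-HI, with an adjusted p of 4.58e-09 from limma. Leaving out each library in turn gave 0.97 to 1.08.

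mt-Atp6, the membrane subunit of ATP synthase that forms the proton path beside the c-ring, had sham values of 14.33 to 14.83 (median 14.50) and HF-HI values of 14.92 to 15.29 (median 15.11). The groups again did not overlap, although the gap between the highest sham and the lowest HF-HI library was narrow. The log2 difference was 0.58 ± 0.0554 (SE), or 1.49-fold, with an adjusted p of 1.18e-08 from limma.

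mt-Cytb encodes cytochrome b, the subunit of complex III that holds both quinone sites. Its values were 13.60 to 14.28 in sham (median 14.05) and 14.72 to 15.14 in HF-HI (median 14.89), with all HF-HI libraries above all sham libraries. The log2 difference was 0.92 ± 0.0721 (SE), or 1.89-fold, with an adjusted p of 6.97e-10 from limma, the lowest of the 6.

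mt-Co1 encodes the subunit of cytochrome c oxidase that holds the oxygen-reducing center, and it had the highest values of the members in every library. It ran from 17.08 to 17.21 in sham (median 17.14) and from 17.14 to 17.21 in HF-HI (median 17.18), and the groups overlapped through most of their range. The log2 difference was 0.028 ± 0.0205 (SE), with a 95% interval of -0.014 to 0.070 and an adjusted p of 0.232 from limma. Its sign depended on the scaling. It was -0.0239 after centring each library on its median and -0.0081 after equalizing library sums without rRNA transcripts, neither of which was called. It was -0.42 after quantile normalization, which was called (adjusted p = 1.98e-16, limma). That step replaces each value by the mean of its rank, so libraries in which a gene holds the same rank receive the same value. The p after this step therefore does not measure the spread of mt-Co1 between libraries. The mitochondrial rRNA mt-Rnr2 lay below mt-Co1 in all sham libraries. In HF-HI it lay above mt-Co1 except in replicate 9, where the rRNA transcript Gm42418 did. The rank of mt-Co1 therefore depends on rRNA levels, whose part in the -0.42 was not tested.

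mt-Co2, whose copper center takes electrons from cytochrome c, had sham values of 15.31 to 15.83 (median 15.61) and HF-HI values of 15.81 to 15.97 (median 15.93). Of the 11 HF-HI libraries, 10 lay above all sham libraries. The SD between libraries was 0.158 in sham and 0.0452 in HF-HI. The log2 difference was 0.32 ± 0.0475 (SE), or 1.25-fold, with an adjusted p of 4.38e-06 from limma, and quantile normalization left 0.011, which was not called.

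mt-Co3, the subunit next to the oxygen-reducing core that contains no redox center, was the member called lower. Its values were 16.39 to 16.46 in sham (median 16.43) and 16.25 to 16.37 in HF-HI (median 16.33), and all 11 HF-HI libraries lay below all sham libraries. The log2 difference was -0.10 ± 0.0207 (SE), with an adjusted p of 1.85e-04 from limma. When the dependence of the values on GC content was taken out of each library (a lowess curve, described with the processing), the difference was 0.037 and was not called, so the direction of mt-Co3 depends on that step.

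**Figure D1:**
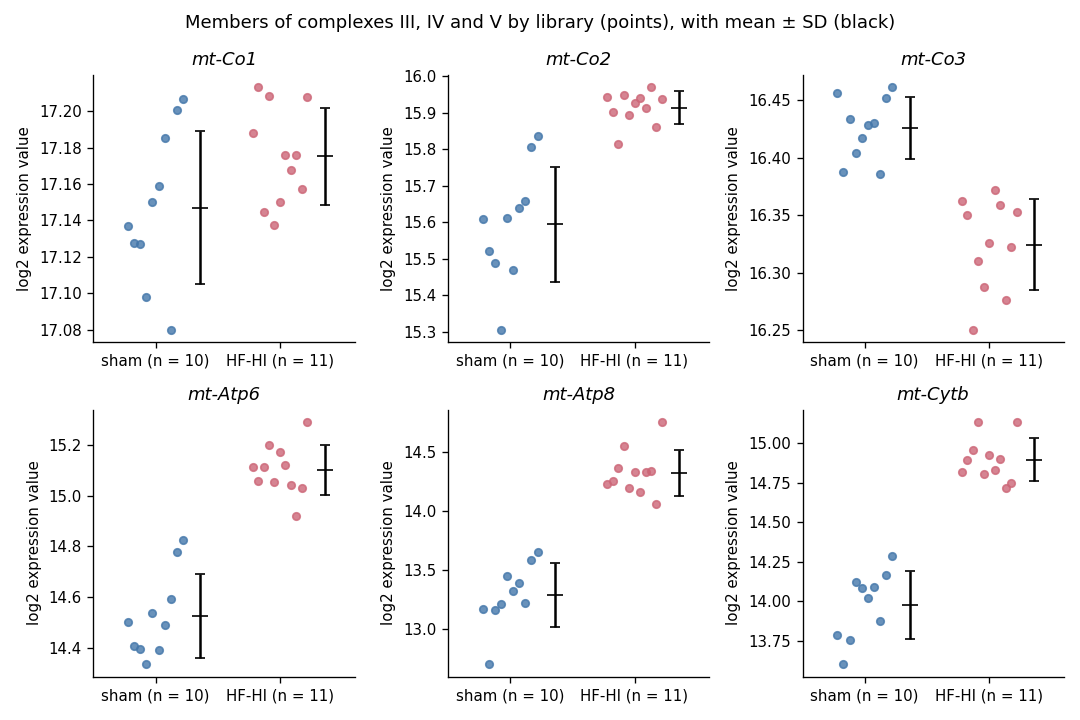
Log2 expression value (y axis, a separate range for each gene) of the 6 members in 10 sham and 11 HF-HI libraries, 1 point a library, with the mean ± SD of each group in black. The groups are apart for mt-Co3, mt-Atp6, mt-Atp8 and mt-Cytb, while mt-Co1 runs from 17.08 to 17.21 in sham and from 17.14 to 17.21 in HF-HI.

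The GC content of the members was 31.9% to 39.9%, below the median of 47.6% over all genes. The slope of a library's values on GC content moved with the group: it ran from -0.23 to 0.0058 log2 units per 10% GC in sham and from -0.039 to 0.16 in HF-HI. Of 427 nuclear genes within the GC range of the members, 19 were called higher and 290 called lower. Their median log2 difference was -0.17, and 0 of them exceeded the difference of mt-Atp6. The part of GC content in the members' differences was examined only by removing the trend. With it removed the differences of all 6 members were positive, and mt-Co1 was called higher (log2 difference 0.16, adjusted p = 5.61e-05, limma).

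Most members have near-identical copies in the nuclear genome, and reads from both cannot be told apart there. On chromosome 1, annotated pseudogenes match mt-Co2 (Gm28661), mt-Co3 (Gm28437) and mt-Atp6 (Gm10925) at 100% of their aligned bases, and Gm29216 matches 483 bases of mt-Co1 at 99.8%. For mt-Cytb the closest annotated copy, Gm11410, was 92.9% identical, and for mt-Atp8 no annotated gene aligned over at least 100 bases. For the 2 members with the largest differences this search thus found no copy over 99% identity. The last 43 bases of mt-Atp8 are also the start of mt-Atp6, whose copy Gm10925 aligned over 678 of 681 bases. This stretch is shorter than the 100 bases required. Only annotated transcripts were searched, however. mt-Atp8 lies between mt-Co2 and mt-Atp6 in the mitochondrial genome. On chromosome 1 their copies are also near neighbours, with Gm10925 ending at 24614651 and Gm28661 starting at 24614885. The stretch between these copies was not examined. A copy of mt-Atp8 there would not have been found, and the part of copies in the members' differences was not tested. A pair of copies on chromosome 2 had values of their own. Gm13340, 97.6% identical to mt-Co1, averaged 10.19 ± 0.149 over the 10 sham libraries and 10.16 ± 0.0834 over the 11 HF-HI libraries (SD). Gm13341, 95.9% identical to mt-Co2, averaged 9.03 ± 0.193 and 9.41 ± 0.0865 over the same libraries (SD). Gm13340 was not called (log2 difference -0.032, adjusted p = 0.589, limma) and Gm13341 was higher (log2 difference 0.38, adjusted p = 1.00e-05, limma), as for the members they resemble.

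Because multiplying a library by 1 factor leaves a ratio of its members as it was, the log2 ratio of each pair was compared between groups by a permutation test over libraries (100000 resamples, two-sided, Benjamini-Hochberg over 15 pairs). All 15 ratios differed at an adjusted p under 0.05, and 11 of them did so without overlap between the groups. The ratios are built from the same members, so they are not 15 independent results. Ratios of other gene pairs were not tested, so these counts have no background of their own. Of all genes taken singly, 66.3% were called in either direction and 13.5% had groups that did not overlap. Quantile normalization, which does alter ratios, left 14 of 15 past the threshold. The members therefore did not move by 1 shared amount. In order of their change relative to mt-Co3, the members stood as mt-Co1, mt-Co2, mt-Atp6, mt-Cytb and mt-Atp8, except that quantile normalization put mt-Co1 below mt-Co3.

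The ratio of mt-Co3 to mt-Atp8 changed most, except under quantile normalization, where mt-Co1 over mt-Atp8 did (-1.41). The log2 ratio was 2.80 to 3.69 in sham (median 3.13) and 1.59 to 2.26 in HF-HI (median 2.03), a difference of -1.14 ± 0.0985 (SE), with an adjusted p of 2.50e-05 by permutation. The ranges were well apart. Within complex IV, the log2 ratio of mt-Co1 to mt-Co3 ran from 0.68 to 0.75 in sham (median 0.73) and from 0.80 to 0.90 in HF-HI (median 0.85), a difference of 0.13 ± 0.0139 (SE) at the same adjusted p, but its sign turned under quantile normalization (-0.16, adjusted p = 0.140 by permutation). This pair of abundant transcripts had a within-group SD of 0.0277 in sham and 0.0350 in HF-HI, so that a small change stood clear of the spread.

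The values of mt-Atp6 and mt-Atp8, which share an mRNA, did not change by the same amount. Their log2 ratio ran from 1.07 to 1.70 in sham (median 1.18) and from 0.53 to 0.97 in HF-HI (median 0.80), without overlap. The difference was -0.46 ± 0.0743 (SE), with an adjusted p of 2.50e-05 by permutation. Both genes share 43 bases, and the nuclear copy Gm10925 matches mt-Atp6 at 100% of its aligned bases. The part of read assignment in this difference was not tested. mt-Atp6 and mt-Co3, which share a base at their junction, were further apart: the log2 ratio of mt-Co3 to mt-Atp6 was 1.63 to 2.07 in sham and 1.06 to 1.36 in HF-HI, a difference of -0.68 ± 0.0549 (SE). mt-Atp8 and mt-Cytb, which lie far apart on the genome, stayed close to each other. Their log2 ratio differed by 0.12 ± 0.0490 (SE), with overlapping groups and an adjusted p of 0.0190 by permutation (0.21 with the GC trend removed).

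**Figure D2:**
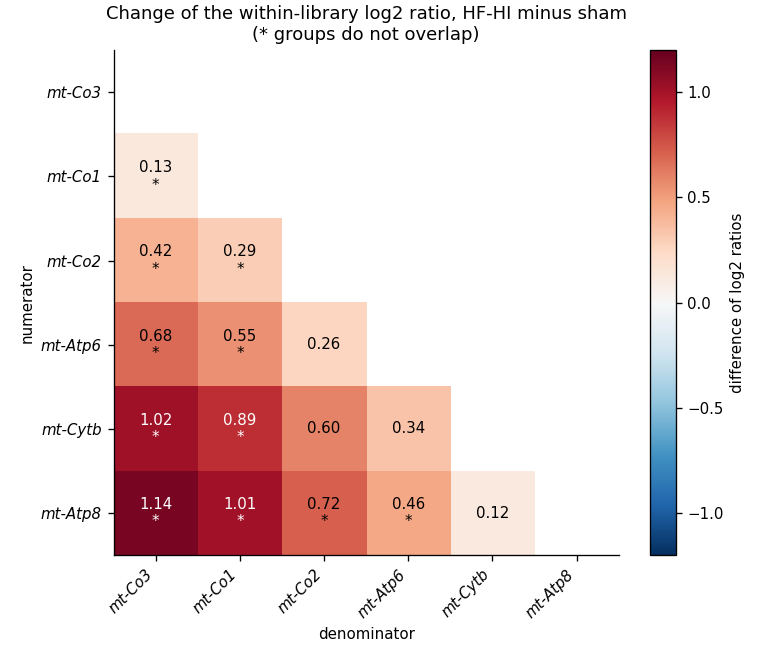
Change of the log2 ratio of each pair of members between groups (HF-HI minus sham, color scale and printed values), with the numerator in rows and the denominator in columns, ordered by change, and asterisks where the 10 sham and 11 HF-HI values do not overlap. Values grow towards the lower left, up to 1.14 for mt-Atp8 over mt-Co3, and 0.12 is the value for mt-Atp8 over mt-Cytb. The value for mt-Co1 over mt-Co3 is 0.13 here and turns negative under quantile normalization.

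Together the 6 members held 3.01% to 3.46% of the summed normalized signal of the table in sham (mean 3.21%) and 3.34% to 3.71% in HF-HI (mean 3.48%), with overlapping ranges. Within this sum the composition shifted. mt-Co1 made up 43.6% ± 1.11 of the members' signal over the 10 sham libraries and 39.1% ± 0.721 over the 11 HF-HI libraries (SD), and mt-Co3 made up 26.5% ± 0.916 and 21.7% ± 0.614. mt-Atp8 went from 3.03% ± 0.416 to 5.46% ± 0.634 and mt-Cytb from 4.88% ± 0.576 to 8.08% ± 0.597. For these 4 members the shares of the groups did not overlap. The summed members thus changed less than mt-Atp8 or mt-Cytb, since mt-Co1 and mt-Co3 hold most of the sum.

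Levels per length (log2 value minus log2 of the gene length in kb) put mt-Co3 first in both groups, at 16.78 ± 0.0270 over the 10 sham libraries and 16.68 ± 0.0397 over the 11 HF-HI libraries (SD). In sham the order was mt-Co3, mt-Co1, mt-Co2, mt-Atp8, mt-Atp6 and mt-Cytb, and each neighbouring pair stood in this order in all 10 libraries. In HF-HI mt-Atp8 moved up to 16.62 ± 0.193 (SD, n = 11), between mt-Co3 and mt-Co1 at 16.55 ± 0.0267. The places of these 3 in HF-HI were not distinct, since mt-Co3 exceeded mt-Atp8 in 7 of 11 libraries and mt-Atp8 exceeded mt-Co1 in 6 of 11. The full gene length was used, with no correction for the length of reads or fragments. The place of mt-Atp8, which has 204 bases, among the longer genes is therefore uncertain in both groups. mt-Cytb remained the lowest per kb, at 13.78 ± 0.215 in sham and 14.70 ± 0.137 in HF-HI.

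The other protein-coding genes of the mitochondrial genome, the 7 subunits of complex I, moved over the same range. Of these, 5 were higher in HF-HI, 1 was lower and 1 was not called. mt-Nd1 (log2 difference 1.03) and mt-Nd2 (1.17), in the stretch between the rRNA genes and mt-Co1, were close to mt-Atp8 and mt-Cytb. mt-Nd4 (0.64), mt-Nd4l (0.71) and mt-Nd5 (0.59) were close to mt-Atp6. mt-Nd3, the next mRNA gene after mt-Co3, was lower as mt-Co3 was, at -0.18 with an adjusted p of 0.00528 from limma, but like mt-Co3 it had a positive difference with the GC trend removed (0.032, adjusted p = 0.709, limma). mt-Nd6, the single mRNA of the opposite strand, was not called (log2 difference 0.32, adjusted p = 0.367, limma). Across the 12 mRNA genes of the + strand, the log2 difference had little relation to the distance from mt-Rnr1 (Pearson's r = -0.13, Spearman's rho = -0.17). Across all 13 mRNA genes its relation to the level per kb in sham was r = -0.47 and rho = -0.53. The sham level is itself part of the log2 difference. With the level per kb over both groups the relation was r = -0.38 and rho = -0.47. These genes share the same libraries and precursor RNAs and are not independent, so all of these relations are descriptions.

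The mitochondrial rRNAs had larger log2 differences than any member. mt-Rnr1, the small-subunit rRNA, ran from 11.57 to 15.18 in sham and from 15.86 to 17.20 in HF-HI, a log2 difference of 3.32 ± 0.315 (SE). mt-Rnr2, the large-subunit rRNA, ran from 15.69 to 16.77 in sham and from 17.10 to 17.68 in HF-HI, a log2 difference of 1.24 ± 0.110 (SE). Both were called (adjusted p of 9.73e-09 and 3.72e-09, limma), and together they held 0.546% to 1.26% of the table's signal in sham and 2.24% to 3.07% in HF-HI. The libraries had been depleted of rRNA with beads, so these levels are what remained after depletion. Gm42418, annotated over a copy of nuclear rRNA, was also higher (log2 difference 2.33 ± 0.771 SE, adjusted p = 0.0105, limma) and reached 17.49 in HF-HI replicate 9. The part of what remained after depletion in the members' differences was not tested.

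**Figure D3:**
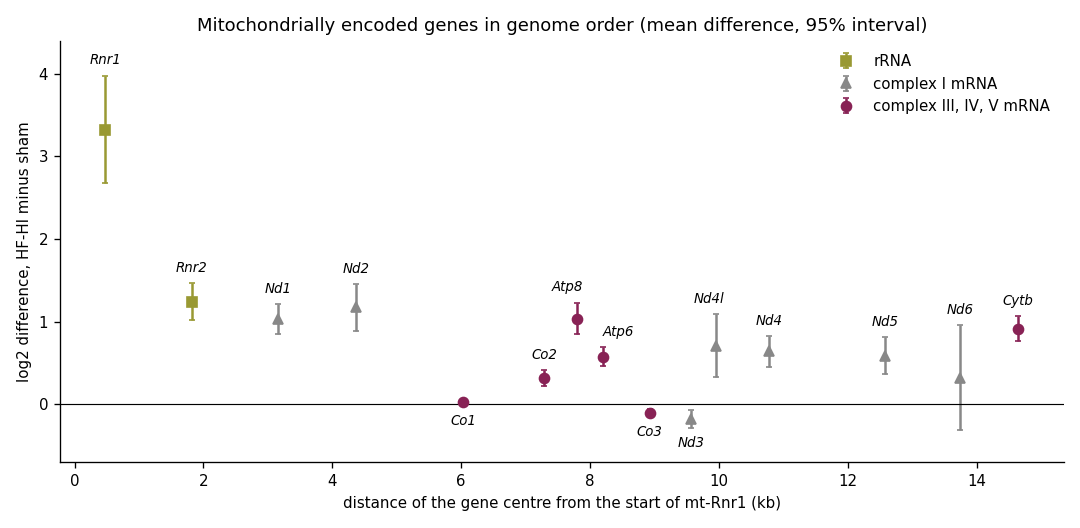
Log2 difference between HF-HI and sham (y axis, points with 95% intervals) of the 15 mitochondrially encoded genes of the table, against the distance of the gene center from the start of mt-Rnr1 in kb (x axis), with rRNA genes as squares, complex I mRNAs as triangles and the members as circles. mt-Co1, mt-Co3 and mt-Nd3 lie near or below 0 (all 3 are positive with the GC trend removed) while mt-Atp8 and mt-Cytb lie near 1 and mt-Rnr1 is at 3.32.

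Within each group most pairs of members had positive correlations across libraries, of which few passed the test. In sham all 15 pairs had a positive Pearson's r (median 0.620), and in HF-HI 14 of 15 did (median 0.439). Over the 30 correlations, 2 pairs in each group passed an adjusted p of 0.05 by permutation (100000 resamples, two-sided, Benjamini-Hochberg), against 9 in sham and 4 in HF-HI with the GC trend removed. In sham these were mt-Co2 with mt-Atp6 (r = 0.947, rho = 0.964, adjusted p = 6.00e-04 for r by permutation) and mt-Atp8 with mt-Cytb (r = 0.899, rho = 0.867, adjusted p = 0.00285 for r by permutation). In HF-HI they were mt-Atp6 with mt-Cytb (r = 0.858, rho = 0.836, adjusted p = 0.00530 for r by permutation) and mt-Atp8 with mt-Cytb (r = 0.856, rho = 0.718, adjusted p = 0.00982 for r and 0.0994 for rho by permutation). Without the 2 libraries farthest from the median of the first gene of the pair, r was 0.968 and 0.765 for the sham pairs and 0.724 and 0.755 for the HF-HI pairs. mt-Atp8 with mt-Cytb was the pair that passed for r in both groups. mt-Co2 and mt-Atp6 had an r of 0.082 in HF-HI, where mt-Co2 varied little, and the difference from sham was not tested.

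Some libraries were high or low for several members at once. Sham replicate 10 had the highest value of the group for all 6 members, and sham replicate 9 lay above the sham median for all 6. In HF-HI, replicate 11 was highest for mt-Atp6, mt-Atp8 and mt-Cytb, while mt-Co2 was highest in replicate 9, where mt-Atp6 and mt-Cytb were lowest. HF-HI replicates 9 and 11 and sham replicate 4 had a relative depth under 0.6. Without these 3 libraries the log2 difference was 0.98 for mt-Atp8 and 0.93 for mt-Cytb, and 5 of the 6 members were still called.

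Of 48 correlations of the members with mt-Rnr1, mt-Rnr2, Gm42418 and relative depth within groups, 2 passed an adjusted p of 0.05 for r and 4 for rho by permutation, and all of these involved mt-Atp8. It followed mt-Rnr2 in sham (r = 0.892, rho = 0.939, adjusted p = 0.00432 for r by permutation, r = 0.864 without the 2 farthest libraries). It followed mt-Rnr1 in HF-HI (r = 0.870, rho = 0.964, adjusted p = 9.60e-04 for r by permutation, r = 0.848 without the 2 farthest libraries). The relations that passed for rho alone were with mt-Rnr1 in sham (r = 0.747, rho = 0.842, adjusted p = 0.119 for r and 0.0449 for rho by permutation, r = 0.911 without the 2 farthest libraries) and with Gm42418 in HF-HI (r = 0.572, rho = 0.900, adjusted p = 0.273 for r and 0.00688 for rho by permutation, r = 0.767 without the 2 farthest libraries). With relative depth, r ran from -0.40 to 0.51 in sham and from -0.62 to 0.40 in HF-HI, and none of these 12 passed.

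**Figure D4:**
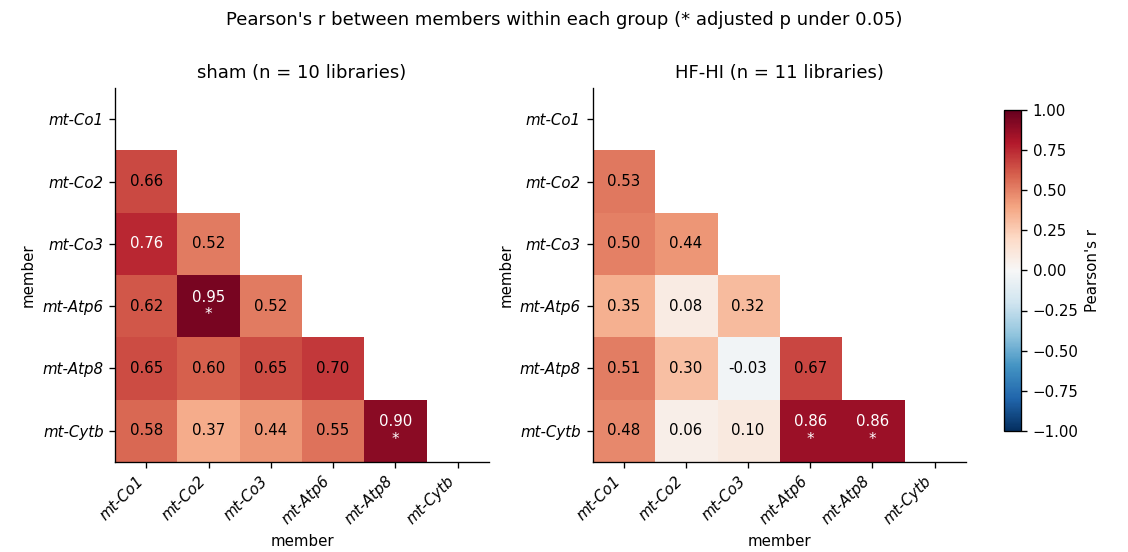
Pearson's r (color scale and printed values) between the log2 values of each pair of members across the 10 sham libraries (left) and the 11 HF-HI libraries (right), with asterisks at an adjusted p under 0.05 by permutation. All 15 sham values are positive, and mt-Atp8 with mt-Cytb is marked in both groups, at 0.90 and 0.86.

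The genes outside the mitochondrial genome whose library-to-library deviations from their group mean were most like the mean deviation of the 6 members (21 libraries, 5526 genes compared) were Cfl1 (r = 0.825), Gstm1 (0.807), Gnb1 (0.793), Elac1 (0.784) and Dnajc7 (0.782). The lowest r was that of Timm23 (-0.796), followed by Cope (-0.780), Galnt9 (-0.763), Slc8a1 (-0.756) and Arl5b (-0.752). Over all these genes the median r was -0.0090. Cfl1 encodes the actin-severing protein cofilin, Gnb1 a beta subunit of heterotrimeric G proteins, and Timm23 a channel subunit of the inner membrane protein import machinery. The values describe likeness over libraries that share their depth and normalization, and were chosen as the extremes. The mean deviation was not scaled, so members that vary more weigh more in it. Its r was 0.937 with mt-Atp8, 0.873 with mt-Cytb and 0.869 with mt-Atp6, but 0.712 with mt-Co1, 0.700 with mt-Co2 and 0.417 with mt-Co3.

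The nuclear-encoded partners of the members in the same complexes were mostly lower. Of 43 genes listed for complexes III, IV and V, 38 were in the table. They include Atpif1, an inhibitor of ATP synthase and not a subunit, which was lower by 0.21. Of these 38 genes, 31 were lower in HF-HI, 2 higher and 5 not called, beside 33.6% lower and 32.6% higher over all genes. Their median log2 difference was -0.23. All 9 measured nuclear subunits of complex III were lower, with a median of -0.23. Uqcrq fell by 0.45 and Uqcrh by 0.42, while Uqcrc1 fell by 0.15 and Uqcr10 by 0.21 on the log2 scale. mt-Cytb, which sits among these subunits, was higher by 0.92.

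Of the 12 measured nuclear subunits of complex IV, 8 were lower and 1 higher, with a median log2 difference of -0.22. Ndufa4 fell by 0.46 and Cox7b by 0.44, Cox6a1 rose by 0.24 (but was at -0.12 with the GC trend removed, adjusted p = 0.116, limma), and Cox5a was at 0.051 (adjusted p = 0.421, limma). Of the 17 measured genes of complex V, 14 were lower and 1 higher, with a median of -0.25. Atp5l, a membrane subunit, fell by 0.56 and Atp5e, the epsilon subunit, by 0.46. Atp5d, the delta subunit, rose by 0.29 (0.043 and not called with the GC trend removed, adjusted p = 0.350, limma), and Atp5j was at 0.11 (adjusted p = 0.131, limma). The values for mt-Atp6 and mt-Atp8 lay above those of all measured nuclear subunits of complex V.

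**Figure D5:**
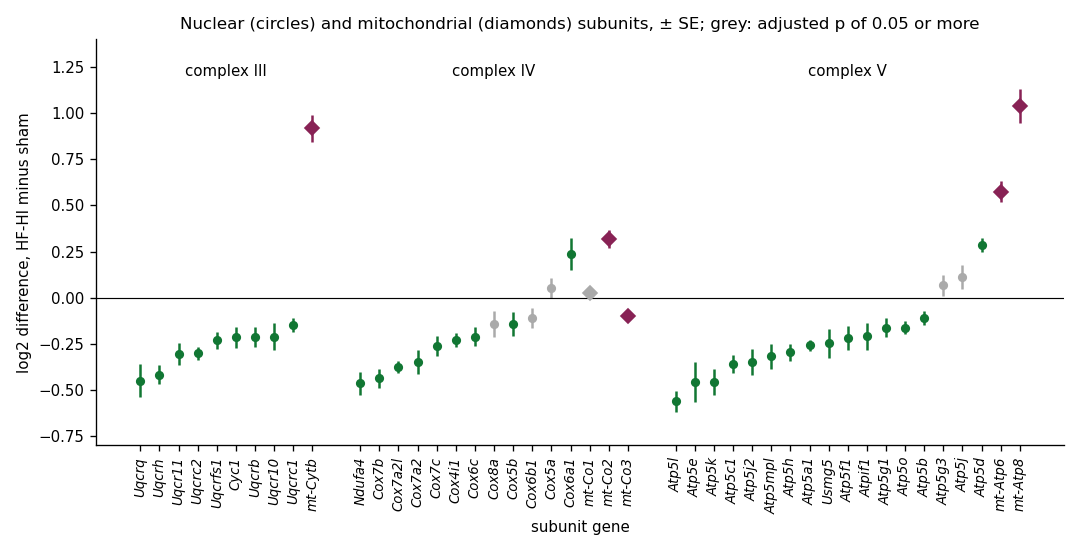
Log2 difference between HF-HI and sham (y axis, ± SE) of each measured gene listed for complexes III, IV and V (x axis), with nuclear genes (subunits, and the inhibitor Atpif1) as circles and members as diamonds, and grey for genes not called. The nuclear genes have a median of -0.23, and mt-Cytb, mt-Atp6 and mt-Atp8 lie above all nuclear subunits of their complex.

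Factors that assemble these complexes were sparsely covered, with 7 of 32 in the table. Of these, 4 were lower and 1 higher. Uqcc2, a complex III assembly factor needed for cytochrome b synthesis, fell by 0.44 and its partner Uqcc1 by 0.23, while Higd2a, which takes part in complex IV assembly, rose by 0.44 and Coa5 was at -0.036 (adjusted p = 0.389, limma). Of 35 listed genes for mitochondrial DNA maintenance, transcription and RNA processing, 5 were in the table. Lrpprc, which stabilizes mitochondrial mRNAs, fell by 0.18 and the DNA polymerase Polg by 0.10, Fastk rose by 0.11 (but was called lower, at -0.11, with the GC trend removed), and Ppargc1a, a coactivator of mitochondrial genes, was at 0.10 (adjusted p = 0.0708, limma). The call of Fastk was lost when any of 8 single libraries was left out (adjusted p up to 0.0709, limma), namely sham replicates 3, 4, 6 and 7 and HF-HI replicates 3, 5, 7 and 10, and Ppargc1a was called higher without any of 4 (sham replicates 3 and 4, HF-HI replicates 7 and 10). The median of these 5 was 0.078, and -0.11 with the GC trend removed.

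Markers of the cell types of cortex were checked beside the members, and their part in the members' differences was not tested. Over all genes, 32.6% were called higher and 33.6% lower. Of 8 neuron markers, all in the table, 6 were higher and 0 lower, with a summed linear level of 59819 to 70156 in sham and 69267 to 80286 in HF-HI. Under quantile normalization 4 of the 8 were called in either direction. Their median log2 difference was 0.15, and 0.25 with the GC trend removed. Of 7 astrocyte markers 3 were higher and 1 lower, with summed levels of 66016 to 71975 and 68262 to 75122. Of 7 oligodendrocyte markers 2 were higher and 0 lower (4 called in either direction under quantile normalization and with the GC trend removed), with summed levels of 39235 to 64841 and 40129 to 64959. Other lists were mostly outside the table: 1 of 7 microglia markers (Csf1r, higher, but not called with medians centred, under quantile normalization or with the GC trend removed, where its difference was -0.0038, summed level 525 to 671 in sham and 581 to 713 in HF-HI), 2 of 6 endothelial markers (Flt1 and Slco1a4, 1 higher and 1 lower, 1112 to 1299 and 1165 to 1280) and 1 of 4 choroid plexus markers (Ttr, not called, 71.7 to 2919 and 116 to 10416). The lists of neuron, astrocyte and oligodendrocyte markers were complete in the table, while those of microglia and endothelial cells were not. The lowest value of the table was 4.59. Variance-stabilized values need not be 0 where no read was counted, so this does not show that every gene was detected.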

How the data were processed

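Bulk cortical RNA-seq libraries were analysed, 10 labelled sham and 11 labelled HF-HI. The authors removed rRNA with beads, made stranded total RNA libraries, sequenced paired ends, aligned reads to mm10 with STAR, counted them per transcript with eXpress and deposited variance-stabilized log2 values made with DESeq2; the versions of STAR and eXpress and the gene annotation are not given in the sources used here. Per-transcript counting can split reads between near-identical copies. Groups came from the labels. Symbols, positions and transcript sequences were from GENCODE M21 (GRCm38), and copies were found with blastn 2.17.0. limma 3.58.1 (R 4.3.3, lmFit, eBayes with a trend) tested all 5544 genes. The limma fit, the permutation tests of ratios and correlations, relative depth and GC trend removal were first tested on simulated data with known answers. Ratios, correlations and figures used Python 3.11.15, numpy 2.4.6, scipy 1.17.1 and matplotlib 3.10.9, with permutation tests of 100000 resamples, whose smallest p is 1e-05. Relative depth came from the spacing of linear values between 500 and 600. GC trends were removed from deviations with a lowess curve of span 0.3 (statsmodels 0.14.6), which also removes any biological difference that follows GC content. Alternatives were the p threshold, a minimum difference, no eBayes trend, the Wilcoxon rank-sum test, 3 scalings, a filter on low values, GC trend, replicate block, relative depth and each library left out. The members and gene lists were chosen with earlier results of these data known. Genes are named as members, by list (2 at each end), as nuclear copies, or as the 5 genes most and least like the members.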

Additional observations from a re-analysis of the deposited data

Results flagged for a closer look

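Among the 10 sham libraries, sham replicate 2 stood apart from the others for mt-Atp8, at 12.70 against a group median of 13.27. Of its log2 ratios, 3 were also far above the rest of the group, mt-Co1 over mt-Atp8 at 4.43, mt-Co2 over mt-Atp8 at 2.82 and mt-Atp6 over mt-Atp8 at 1.70. In each case the gap to the nearest library exceeded Dixon's 95% critical value, which chance alone exceeds in about 1 in 20 groups. The check was run at both ends for the 6 members, the 15 ratios and the members' share. Some flags can thus arise by chance, and these 4 values share mt-Atp8. The same library had the lowest mt-Rnr1 (11.57) and mt-Rnr2 (15.69) of its group. The 11 HF-HI libraries were not examined in this way. Without sham replicate 2, mt-Atp8 had a log2 difference of 0.97, the lowest found when each library was left out in turn, and it was still called.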

How the results depend on the processing

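The calls of mt-Atp6, mt-Atp8 and mt-Cytb kept their direction and their side of the threshold under every alternative run, with log2 differences of 0.52 to 0.75, 0.98 to 1.26 and 0.81 to 1.05 over those that kept every library or dropped the 3 shallow ones. mt-Co1 was at -0.0239 with library medians centred, -0.42 with quantile normalization and -0.0081 with library sums without rRNA equalized, but 0.16 with the GC trend removed and 0.16 with a replicate block as well (adjusted p of 5.61e-05 and 0.00204, limma). mt-Co2 was at 0.011 and not called with quantile normalization. mt-Co3 was at 0.037 with the GC trend removed and 0.042 with the replicate block added, not called in both, and its -0.10 falls short of a minimum of 0.25. With the GC trend removed, the median of the nuclear complex III genes was -0.33, that of the mitochondrial DNA, transcription and RNA processing genes -0.11 with 5 of 5 called, that of the microglia markers -0.0038, and 9 sham pairs (median r 0.786) and 4 HF-HI pairs of members passed the correlation threshold, against 2 and 2. The median of the mitochondrial DNA list was 0.026 with medians centred and 0.020 with quantile normalization, which put the astrocyte markers at -0.091. Of the other named genes, those whose sign changed with the GC trend removed were mt-Nd3 (0.032), Gm13340 (0.097), Cox6a1 (-0.12), Coa5 (0.0016) and Fastk (-0.11), and Cox5a was at -8.21e-04 with medians centred. Under quantile normalization the value of an abundant member depends on which transcripts, rRNA among them, rank above it. The causes of these changes were not tested.

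Leaving out each library in turn changed no call of a member, 5 being called each time, with log2 differences of 0.021 to 0.035 for mt-Co1, 0.29 to 0.35 for mt-Co2, -0.11 to -0.094 for mt-Co3, 0.55 to 0.61 for mt-Atp6, 0.97 to 1.08 for mt-Atp8 and 0.88 to 0.95 for mt-Cytb, and all 15 ratios passed each time. Leaving out the 3 libraries of relative depth under 0.6, and quantile normalization of the ratios (14 of 15 passing, mt-Co1 over mt-Co3 at -0.16), were chosen after seeing the data. The labels give both groups replicate numbers, but same-numbered libraries did not deviate together (r over 0.1 in 4 of 10 pairs, median -0.13), and 0 sham libraries correlated best with their own number. With the replicate number as a block, 5 members were called, with mt-Co3 at -0.10 (adjusted p = 0.00400, limma), and all 15 ratios passed an exact test of paired differences. The block took the call of Fastk (adjusted p = 0.0828, limma) and left 2 astrocyte markers called, against 4. Total depth is unknown, so the counting error of single values cannot be given.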
